A study of Rattus norvegicus with 24 samples.

Results

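The 10 genes described here encode transcription factors that give sensory neurons of the dorsal root ganglion (DRG) their identity: Runx1, Runx3, Isl1, Pou4f1, Pou4f2, Shox2, Prdm12, Etv1, Maf and Zfp521. They were taken by name from the 32881 genes shared by all count files of the series, and all 10 were found. Their levels were followed in single neurons by neuron type, by DRG sample and by the level of Sprr1a, a small proline-rich protein gene known to rise in axotomized neurons. The question was whether the genes that mark a neuron type were kept in neurons with high Sprr1a.

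The neurons came from L4 and L5 DRGs of male Sprague-Dawley (SD) rats after spared nerve crush (SNC), in which the tibial and common peroneal branches of the sciatic nerve were crushed and the sural branch was spared, or after sham surgery, in which the nerve was only exposed. Dyes had been injected into the nerve branches before surgery in all of these rats, and labelled neurons were picked by mouth pipette at 1, 3 and 7 days post injury (dpi). There were 4 sham samples (Xin, 4, 10 and 18), 4 samples at 1 dpi (13, 16, 17-1 and 17-2), 3 at 3 dpi (14, 15 and 17-3) and 5 at 7 dpi (S, 8, 9, 19-1 and 19-2), which together make the labelled set. A further 7 libraries, added to the series later, carry sham labels of 0 d (S1, S2 and S7), 1 d (S3 and S6), 3 d (S4) and 7 d (S5), and form the added set. Every value is a whole count of unique molecular identifiers (UMIs), with 170621 to 492066 as the range of library medians per cell, and levels are given as CPM, in which the counts of a cell or sum are scaled to 1000000 UMIs. Cells with fewer than 500 genes, fewer than 1000 UMIs or 5% or more mitochondrial UMIs were left out, and 930 labelled and 503 added neurons remained. The dye of a cell is not used here, so crushed and spared neurons of 1 sample are pooled. Each sample is treated as 1 replicate; whether samples such as 17-1 and 17-2 came from separate rats is not stated in the labels, so p-values measure the spread between samples, part of which may be technical. All 96 cell barcodes recur in more than 1 library, and no cell had the values of another.

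During development, Isl1 and Pou4f1 act in nearly all DRG neurons, while the Runx factors divide them. Runx1 is known for small nociceptors and C-fiber mechanoreceptors, and Runx3 for muscle proprioceptors that carry the neurotrophin receptor TrkC (Ntrk3). Shox2 is known for touch neurons that carry TrkB (Ntrk2), Maf for large mechanoreceptors, Etv1 for proprioceptors, Prdm12 for the nociceptor lineage, and Pou4f2 and Zfp521 as further factors of the DRG.

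Cells of each set were clustered without the 10 genes and without the injury genes, and a cluster was called "X-like" from lists of markers. The labelled neurons fell into clusters called PEP1-like (192 cells), PEP2-like (190), PEP3-like (114), NP-like (63), TRPM8-like (29), a pair of SST-like clusters (69 and 59) and a pair of NF-like clusters (91 and 81). PEP stands for peptidergic nociceptors, NP for nonpeptidergic nociceptors, SST for somatostatin pruriceptors and NF for Nefh-expressing A-fiber mechanoreceptors. A cluster of 42 cells stayed unnamed; its 6 glial markers summed to 2933 CPM, compared with 79.6 to 275 CPM in the other labelled clusters. The added neurons gave NF-like (98 cells), NP-like (78), SST-like (28) and C-LTMR-like (17) clusters and 3 unnamed clusters of 135, 91 and 56 cells. C-LTMR stands for C-fiber low-threshold mechanoreceptor. Levels per cluster below are means ± SD over samples with at least 3 cells of that cluster, and are descriptions without a test.

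Shox2 (ENSRNOG00000012478) was almost limited to 1 cluster in each set. In labelled neurons it reached 133 ± 35.2 CPM (SD, n = 12) in the NF-like cluster of 91 cells and at most 1.2 CPM on average in any other cluster. It was highest in this cluster in 12 of 12 samples that held it. In the added neurons it reached 113 ± 71.7 CPM (n = 5) in NF-like cells, and the next level was 10.3 ± 9.56 CPM in the unnamed cluster of 135 cells, with no overlap between samples.

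Within the NF-like cluster of 91 labelled cells, the ranges of Shox2 in sham and after SNC overlapped. Shox2 was 106, 147 and 186 CPM in the 3 sham samples that held enough cells and 112 and 162 CPM at 1 dpi. At 3 dpi it was 103, 104 and 175 CPM, and at 7 dpi it was 83.6, 116, 120 and 182 CPM.

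Runx3 (ENSRNOG00000054217) was found in the same NF-like cells at a low level. It averaged 12.4 ± 11.5 CPM (n = 12) in the labelled NF-like cluster of 91 cells and 0 to 0.82 CPM in the 9 other clusters. This cluster was the highest in 9 of the 12 samples that held it. The second NF-like cluster, with 81 cells, held 0.042 ± 0.16 CPM. In the added NF-like cells it averaged 13.9 ± 7.25 CPM (n = 5), above every other cluster in each of the 5 samples.

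Runx3 divided these NF-like cells further. At 10 CPM or more it was found in 27 of the 91 labelled cells. Shox2 was found in 92.6% of the cells with Runx3 and in 95.3% of the other cells of the cluster, and Ntrk3 in 100% and 90.6%. Pvalb, the calcium buffer of proprioceptors, was found in 92.6% of the cells with Runx3 and in 57.8% of the others. Ntrk2 was found in 44.4% of the cells with Runx3 and in 96.9% of the others. As pooled levels, Ntrk2 was 12.8 CPM in cells with Runx3 and 179 CPM in the others, and it was lower in 10 of 10 samples that held both. Pvalb was 488 CPM compared with 72.7 CPM, and it was higher in 9 of these 10 samples.

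In the added NF-like cells the pooled levels of Ntrk2 and Pvalb gave the same order, but the detection of Ntrk2 did not. Runx3 was found in 36 of 98 cells, and all 36 had Shox2, Ntrk3 and Pvalb. Ntrk2 was found at 10 CPM or more in 97.2% of the cells with Runx3 and in 90.3% of the others. Pooled Pvalb was 809 CPM in cells with Runx3 compared with 147 CPM, higher in 5 of 5 samples. Ntrk2 was 40.1 CPM in cells with Runx3 compared with 262 CPM in the others, lower in 5 of 5 samples. Shox2 itself was 288 CPM compared with 56.9 CPM, higher in 5 of 5 samples, whereas in labelled cells it was 155 compared with 112 CPM and higher in 6 of 10 samples. Pou4f2 ran the other way in both sets, with 15.0 CPM in labelled cells with Runx3 and 46.6 CPM in the others, and 23.7 and 107 CPM in added cells. It was lower in 8 of 10 labelled and 5 of 5 added samples. Etv1 was 176 CPM with Runx3 and 60.1 CPM without it in labelled cells, and 598 and 165 CPM in added cells. Etv1 was higher in 7 of 10 labelled and 4 of 5 added samples. Cells with Runx3 were also deeper, with medians of 618020 and 453838 UMIs in the labelled set and 521777 and 484876 UMIs in the added set. These splits were chosen after the values were seen, and cells of 1 sample are not replicates, so no test is given.

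The 250 bases upstream of the first Runx3 start, from RefSeq on build GRCr8 (chr5:152644020-152644269, plus strand), are shown because they hold the core recognized by the Runx family in a pair of copies. The capitals mark ACCACA, which is TGTGGT on the other strand; 14.5% of all 33469 promoters of this length hold it on either strand.
Runx3: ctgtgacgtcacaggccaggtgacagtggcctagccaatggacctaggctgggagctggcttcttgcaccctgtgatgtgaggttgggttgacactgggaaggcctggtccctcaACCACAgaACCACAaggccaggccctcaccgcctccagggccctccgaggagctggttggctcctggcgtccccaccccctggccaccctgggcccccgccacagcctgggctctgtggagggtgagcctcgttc
The second Runx3 promoter in the table holds 0 copies. A match is a description of these letters and not a binding site.

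Maf (ENSRNOG00000012428) was highest in the same NF-like cells but was also present in the second NF-like cluster. It averaged 28.9 ± 5.50 CPM (n = 12) in the NF-like cluster of 91 cells, where it was the highest in 11 of 12 samples, and 15.5 ± 8.67 CPM (n = 15) in the other NF-like cluster. In the added NF-like cells it averaged 45.2 ± 16.1 CPM (n = 5), followed by 19.8 ± 10.6 CPM in the unnamed cluster of 135 cells, in which glial markers summed to 949 CPM. The part of these glial transcripts in that level was not tested.

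Runx1 (ENSRNOG00000001704) was high across small-neuron clusters and low in NF-like cells. In labelled neurons it was 138 ± 49.2 CPM (n = 5) in TRPM8-like, 114 ± 59.8 (n = 16) in PEP2-like and 73.6 ± 34.8 (n = 16) in PEP1-like cells. The unnamed cluster lay between them at 108 ± 45.0 (n = 7), and these neighbours did not differ beyond their spread. The 2 NF-like clusters held 13.3 ± 4.09 CPM and 16.6 ± 8.55 CPM, and the step up to the next cluster exceeded the combined SD, in 12 of 12 samples. In added neurons it was 206 ± 43.1 CPM in C-LTMR-like, 182 ± 17.5 in NP-like and 168 ± 17.0 in the unnamed cluster of 56 cells, compared with 22.3 ± 11.6 CPM in NF-like cells. Labelled NP-like cells, with 50.4 ± 23.7 CPM (n = 8), did not share the high level of the added NP-like cells; this difference between sets was not tested.

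Prdm12 (ENSRNOG00000009218) was nearly absent from the Shox2-expressing cells. Labelled NF-like cells with Shox2 held 1.20 ± 2.11 CPM (n = 12), whereas the second NF-like cluster held 14.9 ± 11.0 CPM (n = 15), close to the 17.6 ± 8.66 CPM of NP-like cells and the 15.6 ± 5.40 CPM of PEP3-like cells. In added NF-like cells it was 3.41 ± 1.44 CPM, the lowest of the 7 clusters. After thinning every cell to 50000 UMIs, a Prdm12 UMI was seen in 3.37% of the labelled NF-like cells with Shox2 and in 36.8% of the second NF-like cluster. The name of this second cluster rests on the marker list alone. At 10 CPM or more, Ntrk3 was found in 52, Ntrk2 in 40, Prdm12 in 33 and Pvalb in 16 of its 81 cells. Whether these cells are A-fiber mechanoreceptors was not tested.

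Etv1 (ENSRNOG00000006867) was highest in the SST-like cluster of 59 labelled cells, at 150 ± 48.4 CPM (n = 8), followed by the Shox2-expressing NF-like cells at 110 ± 68.1 CPM. The pair did not differ beyond the spread between samples. In added neurons it was 519 ± 169 CPM (n = 6) in SST-like cells and 514 ± 55.1 CPM in the unnamed cluster of 91 cells. PEP1-like, PEP2-like and TRPM8-like cells held 11.1, 8.03 and 8.04 CPM on average.

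Pou4f2 (ENSRNOG00000012167) and Zfp521 (ENSRNOG00000016874) shared their highest cluster in the added set. In C-LTMR-like cells, Pou4f2 was 330 ± 73.8 CPM and Zfp521 was 228 ± 58.1 CPM (n = 4), each with no overlap with the next cluster, the NF-like cells at 89.1 ± 29.7 CPM and 62.9 ± 19.8 CPM. In the labelled set Pou4f2 was highest in NF-like cells with Shox2, at 32.9 ± 14.5 CPM (n = 12), and Zfp521 in TRPM8-like cells, at 105 ± 54.1 CPM (n = 5). The labelled set had no C-LTMR-like cluster by the marker lists used here, which leave out the members. The study did name a type of putative low-threshold C-mechanoreceptors among its labelled neurons, with Zfp521 as a marker. Whether that type matches the TRPM8-like cluster was not tested.

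Isl1 (ENSRNOG00000012556) and Pou4f1 were spread over all clusters. Isl1 ranged from 92.9 ± 21.5 CPM in PEP1-like to 328 ± 72.0 CPM in TRPM8-like cells among labelled neurons, and from 101.8 ± 26.2 CPM in SST-like to 336 ± 59.4 CPM in C-LTMR-like cells among added neurons. At 50000 UMIs per cell, 91.0% or more of the cells of each cluster in both sets had an Isl1 UMI, as a check that these were sensory neurons. Pou4f1 (ENSRNOG00000060662) averaged 5.59 to 13.4 CPM in labelled and 6.15 to 19.9 CPM in added clusters, and neighbouring clusters did not differ beyond their spread.

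**Figure D1:**
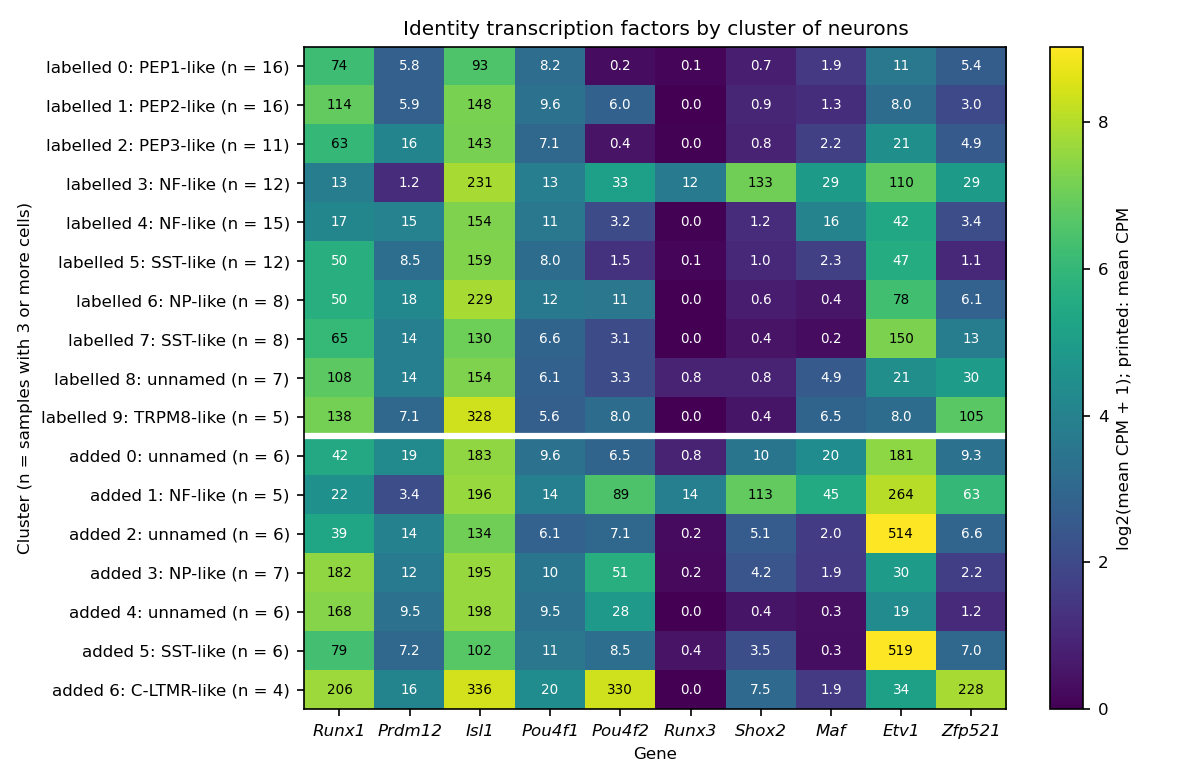
Level of the 10 genes (log2(CPM + 1), colour) in each cluster of labelled and added neurons, as the mean over DRG samples. Shox2 and Runx3 stand out in 1 NF-like cluster of each set, whereas Isl1 is present in every cluster.

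For each member, the genes with the most similar pattern over clusters were ranked by Pearson r of log2(CPM + 1), among 9402 genes of at least 10 CPM in a cluster of each set, by the lower of the r values over 10 labelled and 7 added clusters. These clusters share libraries and differ in depth. For Shox2 the first were Hapln4 (r = 0.98), Pvalb (0.97) and Tmem178a (0.97), and for Runx3 they were Rasgrp2 (0.97), LOC108350059 (0.97) and Lypd1 (0.96). For Maf they were Tbc1d9b (0.95), Epn3 (0.95) and S100b (0.95). The first for Runx1 was Cd47 (0.90), for Zfp521 Scg5 (0.91), for Etv1 Naaa (0.88), for Pou4f2 Usp28 (0.89), for Isl1 Fahd2a (0.83), for Pou4f1 Tbl2 (0.87) and for Prdm12 Sgta (0.83).

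None of the 10 genes passed the test after SNC when all labelled neurons of a sample were summed. The edgeR quasi-likelihood test called 0 of 14239 genes (0%) at an adjusted p under 0.05 at 1, 3 or 7 dpi, whereas 1243, 594 and 476 genes had an unadjusted p under 0.05. DESeq2 called 8 (0.0323%), 1 (0.00404%) and 0 of 24765 genes, and none of the 10. In such sums, fewer cells of a type and less RNA per cell cannot be told apart.

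Isl1 was 114, 181, 198 and 203 CPM in sham, 109, 139, 151 and 153 CPM at 1 dpi, 174, 175 and 179 CPM at 3 dpi, and 123, 134, 154, 185 and 201 CPM at 7 dpi. The groups overlapped, and the log2 difference from sham was −0.39 ± 0.17 (SE) at 1 dpi (edgeR adjusted p = 0.57). Runx1 was 37.4, 53.3, 61.0 and 62.7 CPM in sham and 44.0, 65.6, 82.0 and 87.7 CPM at 1 dpi, with a log2 difference of 0.30 ± 0.29. At 3 dpi it was 38.8, 49.1 and 64.9 CPM, and at 7 dpi it ran from 28.5 to 80.0 CPM.

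Pou4f1, a POU factor needed for sensory neuron survival and subtype choice, was the 1 member whose ranges did not overlap. It was 10.5, 11.6, 13.6 and 14.2 CPM in sham and 7.13, 7.58, 8.28 and 8.96 CPM at 1 dpi. The log2 difference was −0.71 ± 0.24, with an unadjusted p of 0.0094 and an edgeR adjusted p of 0.53. Among genes averaging at least 5 CPM, 0.884% were lower than sham without overlap at 1 dpi. At 3 dpi Pou4f1 was 8.31, 10.8 and 15.0 CPM and overlapped sham again. No sham sample was reverse transcribed on the same day as a sample at 1 or 3 dpi, so the group and the day are linked through samples at 7 dpi alone. With the day as a block, an alternative added once the data had been seen, Pou4f1 differed by −0.33 ± 0.41 at 1 dpi (edgeR adjusted p = 0.74). At 3 and 7 dpi 0 members were without overlap, compared with 6% and 1.02% of genes in either direction.

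Shox2, the touch-neuron factor, varied widely between samples. It was 0 CPM in sham sample Xin, which had none of the NF-like cells with Shox2 among its 24 cells, and 18.6, 20.8 and 35.9 CPM in the other sham samples. After SNC it ran from 4.02 to 21.2 CPM at 1 dpi, 19.0 to 40.8 CPM at 3 dpi and 0.21 to 75.7 CPM at 7 dpi. The lowest and highest values at 7 dpi were those of samples 19-2 and 19-1, which had opposite shares of directly injured cells. The part of these shares was not tested. Etv1 was 4.50 CPM in sample Xin and 44.6, 56.7 and 85.5 CPM in the other sham samples, compared with 18.0 to 114 CPM at 7 dpi. The glial markers summed to 1330 CPM in sample Xin, compared with 122 to 1063 CPM in the other labelled samples, and their part in these levels was not tested. The study lists sample Xin and 7 dpi sample S with an earlier sequencing date than the other labelled samples. The part of this date was not tested either.

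For the remaining members the SE was large. The log2 difference of Runx3 from sham was −1.42 ± 1.34 at 1 dpi and 2.02 ± 1.34 at 3 dpi, and that of Maf was 0.71 ± 0.64 at 1 dpi. Reverse transcription fell in 2 years. The earlier year held 3 sham samples and 3 at 7 dpi, and among these the ranges of all 10 genes overlapped. Sham sample 4 shared its day of reverse transcription with 7 dpi sample 8, and sham sample 10 with 7 dpi sample 9. In both pairs 4 members were lower after SNC (Pou4f1, Isl1, Runx1 and Etv1) and 2 were higher (Maf and Pou4f2), and the other 4 differed in direction between the pairs. Pou4f1 was 13.6 CPM in sample 4 and 10.5 CPM in sample 8, and 11.6 CPM in sample 10 and 8.55 CPM in sample 9. These 2 pairs are given without a test. The share of all genes with the same direction in both pairs was not counted, so this tally is no finding about the members. Of 28 other sensory transcription factors tested, 0 were called at any time.

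**Figure D2:**
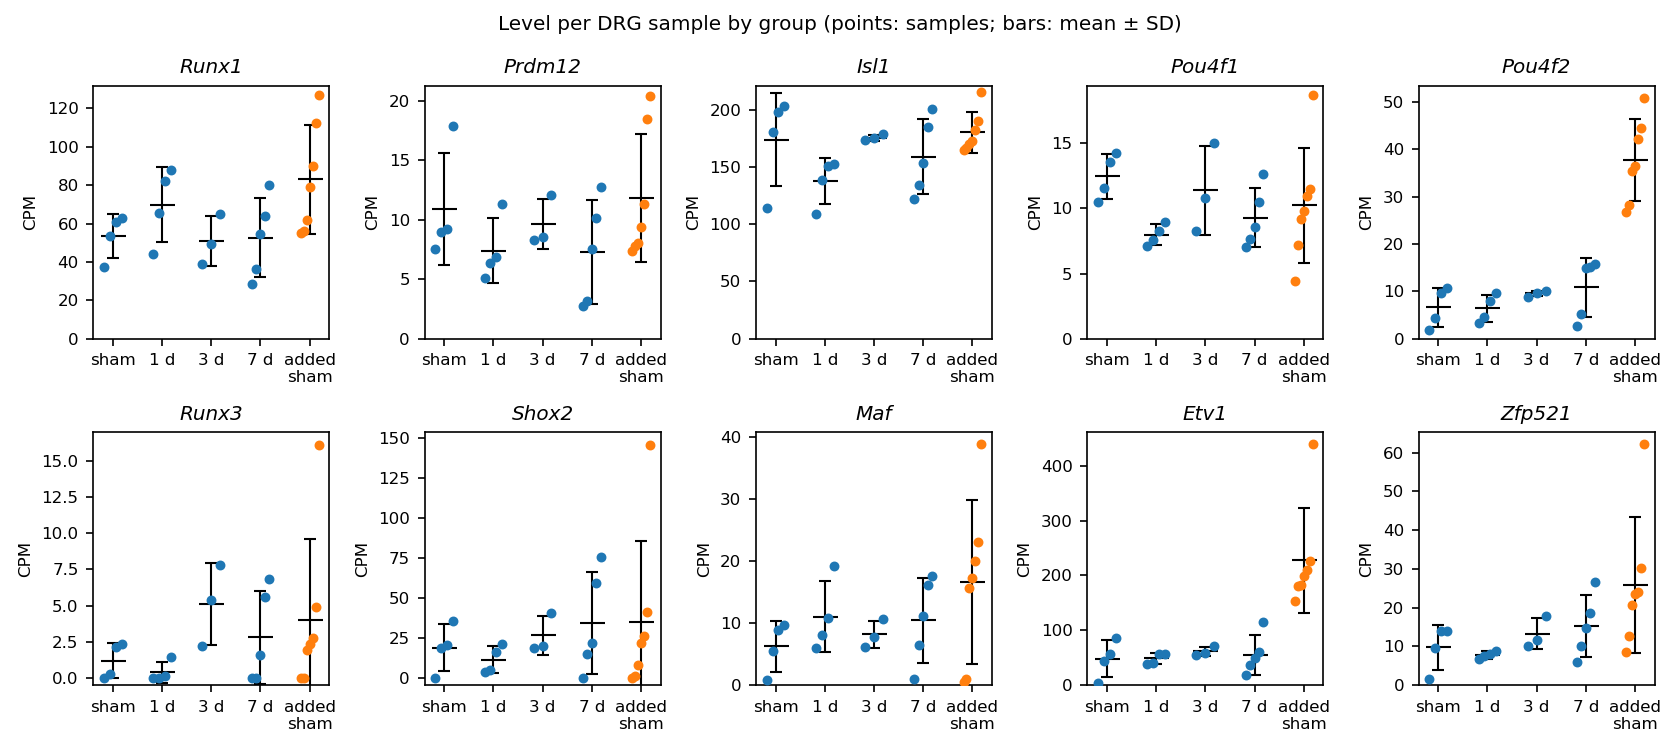
Level of each gene (CPM, linear axes) in every DRG sample by group (sham, 1, 3 and 7 dpi and added sham); each point is 1 sample, and bars are the mean ± SD. The SNC groups overlap sham for every gene except Pou4f1 at 1 dpi, and Etv1 and Pou4f2 are higher in the added libraries.

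Between the added and the labelled sham samples, Etv1 and Pou4f2 were higher and the other 8 genes did not pass the test. The edgeR test called 3816 of 15791 genes higher (24.2%) and 2599 lower (16.5%), so 2 of 10 members higher is close to the background. The median log2 difference over all genes was 0.15 with edgeR and 0.02 with DESeq2. The sets differ in when they were made, which cannot be told apart from the set. The labels give the labelled sham samples no day after surgery, and the added files do not state whether their neurons carried dye. The study counts its fluorescently labelled neurons apart from further neurons used for subtype annotation. Dye labelling may therefore differ between the sets as well, and it cannot be told apart from the set either.

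Pou4f2 was 1.75, 4.41, 9.53 and 10.6 CPM in labelled sham and 26.7, 28.3, 35.5, 36.5, 42.1, 44.6 and 51.0 CPM in added sham, without overlap. The log2 difference was 2.37 ± 0.39 (SE; edgeR adjusted p = 0.00055). Etv1 was 4.50 to 85.5 CPM in labelled and 153 to 439 CPM in added sham, also without overlap, with a log2 difference of 2.13 ± 0.52 (adjusted p = 0.0063). Ranges of 25.3% of genes averaging at least 5 CPM lay above labelled sham without overlap.

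Cell types differed between the sets as well. Sample S4 held 43 NF-like cells among 86, and it had the highest Shox2 (146 CPM), Runx3 (16.1 CPM), Maf (38.8 CPM), Zfp521 (62.2 CPM) and Etv1 (439 CPM) of all samples. When only NF-like, SST-like and NP-like cells were compared by limma, an alternative chosen after seeing the data, Etv1 differed by 0.70 on the log2 scale and lost the call (adjusted p = 0.22). Sample Xin dropped out of this test, which leaves 3 labelled sham samples, and without Xin the edgeR test still called Etv1 (1.73, adjusted p = 0.0029). The limma test on these cells called 45.3% of genes. Runx1 was then called higher by 1.12 (adjusted p = 0.0029), and Isl1 and Prdm12 lower, with log2 differences of −0.43 and −0.92. Without the clusters of high glial genes, also chosen after seeing the data, 44.9% of genes and 4 members were called.

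The injury genes split the sets. Sprr1a had 6 UMIs in 1 of 503 added cells, whereas in labelled samples, sham included, it ran from 54.9 to 282 CPM, and 7 of 7 injury genes tested were lower in added sham. Of the other transcription factors, 11 of 30 tested were higher, such as the ETS factor Etv5 (log2 difference 1.29 ± 0.24) and the Runx partner Cbfb (1.24 ± 0.31). The 3 that were lower were Sox11, Tlx3 and Neurod1, and Sox11 is also counted among the injury genes.

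Within the labelled set, cells were called Sprr1a-high at 100 CPM or more, which gave 413 high and 517 low cells in 16 samples; 227 cells lay between 50 and 200 CPM. Sprr1a did not separate SNC from sham in this set, with means of 152 CPM in sham and 167, 144 and 149 CPM at 1, 3 and 7 dpi. Atf3, an injury-induced transcription factor gene, averaged 580 CPM in sham and 532, 511 and 547 CPM after SNC, and 0 of 7 injury genes tested were called at any time. High cells made up 72.4% of PEP1-like, 69.5% of PEP2-like and 53.6% of the larger SST-like cluster. They made up 36.3% and 37.0% of the NF-like clusters, and 3.51%, 3.17% and 1.69% of PEP3-like, NP-like and the smaller SST-like cluster. A high cell thus differed from a low cell in cluster as well as in Sprr1a. The marker lists of PEP1-like and PEP2-like hold genes, such as Arg1 and Litaf, that the study places in modules upregulated at 1 dpi. The study also lists Sprr1a itself as a marker gene of PEP1 and PEP2, and Gal is on the PEP1 list. Type and injured state therefore cannot be told apart in these clusters.

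The 250 bases upstream of Sprr1a (GRCr8, chr2:180752626-180752875, minus strand) and of the second Prdm12 start (chr3:35325758-35326007, plus strand) are shown because Sprr1a divides the cells and Prdm12 had the largest difference among the members. Capitals mark the AP-1 site TGANTCA, read on both strands and held by 6.34% of all promoters, and the TATA box TATAAA, held by 12.9%. AP-1 is the site of Jun and Atf3 family factors.
Sprr1a: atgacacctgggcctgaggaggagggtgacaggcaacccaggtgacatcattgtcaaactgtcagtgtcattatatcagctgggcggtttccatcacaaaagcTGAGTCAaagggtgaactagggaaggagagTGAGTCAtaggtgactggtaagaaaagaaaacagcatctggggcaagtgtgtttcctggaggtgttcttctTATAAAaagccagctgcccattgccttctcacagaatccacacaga
Prdm12: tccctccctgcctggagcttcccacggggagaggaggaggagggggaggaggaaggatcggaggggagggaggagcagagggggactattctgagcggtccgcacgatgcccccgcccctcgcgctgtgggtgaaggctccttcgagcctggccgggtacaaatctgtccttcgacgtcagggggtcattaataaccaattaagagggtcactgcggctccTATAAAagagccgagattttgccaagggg
The window of Sprr1a held 2 AP-1 matches. The 12 promoters of the 9 members with an entry held 0, which says only that these letters are not in these windows. Shox2 had no entry.

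Between Sprr1a-high and Sprr1a-low cells of the same sample, Prdm12, Etv1, Isl1 and Pou4f2 were lower and Runx1 was higher in high cells. The edgeR test, paired by sample, called 1972 of 11899 genes higher (16.6%) and 1895 lower (15.9%), 32.5% in all, and 5 of the 9 members that passed the filter. Runx3 did not pass it; it was higher in high cells in 5 samples and lower in 6.

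Prdm12 ran from 0.75 to 10.7 CPM (median 4.15) in high cells and from 3.34 to 21.2 CPM (median 11.8) in low cells, lower in 16 of 16 samples, with a log2 difference of −1.59 ± 0.22 (SE; edgeR adjusted p = 1.3e-05). Etv1 ran from 5.71 to 55.3 CPM (median 22.6) in high and from 0 to 132 CPM (median 70.7) in low cells, with a log2 difference of −1.30 ± 0.23 (adjusted p = 0.00019). It was lower in 15 of 16 samples, and the exception was sample Xin. Isl1 ran from 84.0 to 200 CPM (median 123) in high and from 76.5 to 221 CPM (median 190) in low cells, lower in 15 of 16 samples, again all but Xin, with a log2 difference of −0.47 ± 0.09 (adjusted p = 0.00051). The ranges of high and low cells overlapped for each of the 3 genes, while the direction within samples held.

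Pou4f2 was lower in 13 of 16 samples (−1.05 ± 0.26, edgeR adjusted p = 0.0042). Runx1 was higher in 12 of 16 samples (0.46 ± 0.15, adjusted p = 0.021), with 26.0 to 116 CPM in high and 26.1 to 74.5 CPM in low cells. It lost the call when only the 12 samples after SNC were used (0.33, adjusted p = 0.062), a test that called 27.2% of genes. With the 4 sham samples only, 0 members and 1.99% of genes were called; without sample Xin, chosen after seeing the data, 4.6% of genes and Etv1 were (−2.24, adjusted p = 0.007). At a limit of 500 CPM, where 25% of genes were called, Maf was called lower in high cells (−2.46, adjusted p = 0.0034). Shox2 (−0.84 ± 0.54), Zfp521 (−0.57 ± 0.30), Pou4f1 (0.02 ± 0.12) and Maf (0.00 ± 0.26) did not pass the test.

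**Figure D3:**
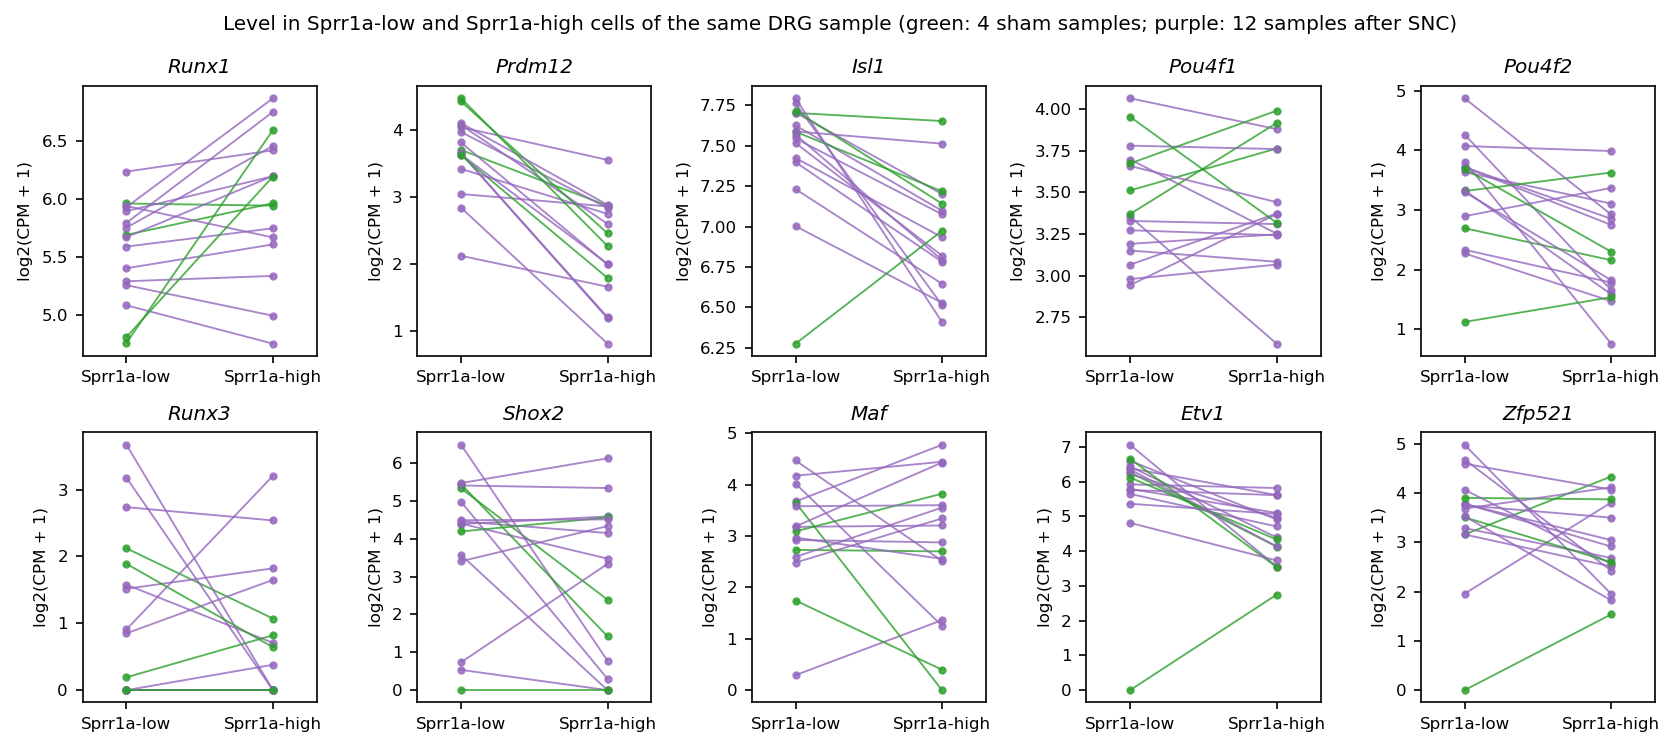
Level of each gene (log2(CPM + 1)) in Sprr1a-low and Sprr1a-high cells, with 1 line per DRG sample (green: 4 sham samples; purple: 12 samples after SNC). Prdm12 is lower in high cells in 16 of 16 samples, and Etv1 and Isl1 in 15 of 16.

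Sham and SNC samples were compared for this difference by an interaction term, added after seeing the data. No member was called, and 0 of 11899 genes were (585 at an unadjusted p under 0.05). For Isl1 the high-minus-low difference was −0.61 in samples after SNC and −0.02 in sham samples, and the interaction was −0.56 ± 0.18 with an unadjusted p of 0.006 and an edgeR adjusted p of 0.87. The sham value rests on sample Xin, which had 24 cells and 125 CPM in high compared with 76.5 CPM in low cells. In the other 3 sham samples Isl1 was lower in high cells, at 200 compared with 207 CPM, 148 compared with 191 CPM and 140 compared with 209 CPM. Without Xin the sham difference was −0.23 ± 0.12 and the interaction −0.38 ± 0.17 (unadjusted p of 0.038, edgeR adjusted p of 0.94). Prdm12 had −1.52 after SNC and −1.82 in sham.

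All 7 injury genes tested were higher in Sprr1a-high cells, of which Sprr1a itself defines the cells and is no finding. Among the other 6 were the transcription factor genes Atf3 (1.06 ± 0.11) and Sox11 (1.13 ± 0.19). Of 25 other sensory transcription factors tested, 5 were higher and 8 lower. Sox11, already counted among the injury genes, is among those that were higher. Neurod1, a basic helix-loop-helix factor, rose (1.56 ± 0.37), while Ldb2, a LIM-domain cofactor (−2.18 ± 0.12), Bcl11a (−1.03 ± 0.22) and Cbfb (−1.02 ± 0.16) fell. Of 11 partner and target genes tested 5 were lower, which were Trpv1, Scn10a, Cbfb, Calca and Ret. Cbfb is thus counted in both lists. The glial sum had medians of 246 CPM in high and 262 CPM in low cells, and 1 of 6 glial markers, Mbp, was higher in high cells; its part in the result was not tested.

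By the Sprr1a level itself, Etv1 was 98.2 CPM in the 142 cells without a Sprr1a UMI, 82.1 CPM under 20 CPM of Sprr1a, 40.6 CPM from 20 to under 100, 29.6 CPM from 100 to under 500 and 6.78 CPM in the 74 cells at 500 CPM or more. In the same order Isl1 was 171, 202, 176, 139 and 83.2 CPM, and Prdm12 was 10.8, 15.4, 7.83, 5.02 and 3.09 CPM, so that both were highest in the second of these 5 bins. Runx1 was 47.3 to 57.4 CPM below 500 CPM of Sprr1a and 128 CPM above it. Shox2 was 0.53 CPM in the cells at 500 CPM or more, compared with 18.0 to 33.7 CPM in the others. The bins hold different types: 1 of the 74 cells at 500 CPM or more was of the NF-like cluster with Shox2 and 63 were PEP1-like or PEP2-like, whereas that NF-like cluster made up 6.34% to 14.2% of the other bins. These are pooled values over cells, given as a description, and the cells without a Sprr1a UMI were also the shallowest, with a median of 97324 UMIs.

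High and low cells of the same type and the same sample were then compared where each had at least 3 cells, which left 257 high and 144 low cells of 12 samples, most of them PEP1-like and PEP2-like. The limma test called 137 of 9762 genes (1.40%), 121 of them higher, and 0 of the 9 members tested. At an unadjusted p under 0.05 there were 1325 genes. Of 7 injury genes tested, 2 were called higher, which were Gal and Sprr1a, the gene that defines the cells. Between cells of the same sample all 7 had been called. The comparison within types can thus take out part of the injured state, and it used fewer cells. Why calls were lost was not tested.

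Isl1 was lower in high cells in 11 of 12 samples, from −1.80 to 0.52 (median −0.37) in log2(CPM + 1), with a mean of −0.47 ± 0.15 (SE; limma adjusted p = 0.16). It passed the threshold without sample Xin (−0.56, limma adjusted p = 0.048). It also passed in an edgeR fit with sample and type as a block (−0.47, adjusted p = 0.0021), which called 5.82% of genes. That fit took the 29 pairs of high and low cells as replicates, although they came from 12 samples. Its p-values can therefore be too small. Isl1 was also called at a limit of 500 CPM (−1.12, limma adjusted p = 0.047), where 0.149% of genes were. Etv1 was lower in 10 of 12 samples (−0.54 ± 0.31, limma adjusted p = 0.47), and was called in the edgeR fit with the block (−0.86, adjusted p = 0.041). Prdm12 was lower in 9 of 12 samples (−0.74 ± 0.34, limma adjusted p = 0.35). Runx1 was higher in 8 of 12 samples, from −1.19 to 3.81, and the top value came from sample Xin. Pou4f2 (0.05 ± 0.26) and Shox2 (0.09 ± 0.23) did not pass the test. For both, 18 of the 29 pairs of high and low cells were PEP1-like or PEP2-like, in which Pou4f2 had pooled levels of 0.19 to 6.03 CPM and Shox2 of 0.55 to 1.02 CPM. The NF-like cluster with Shox2 gave 6 of the pairs.

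**Figure D4:**
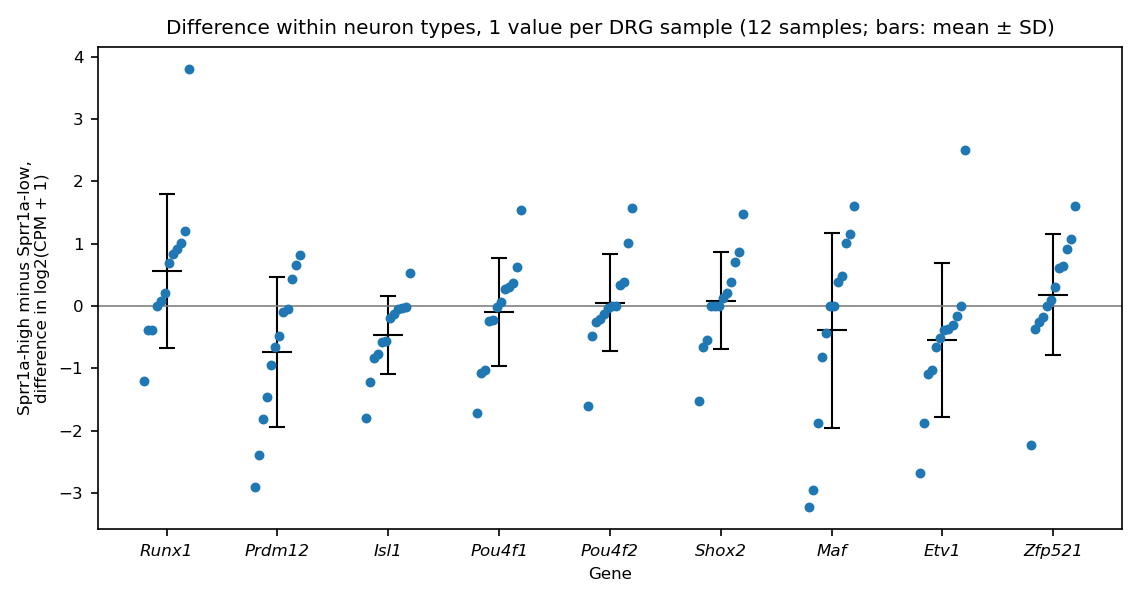
Difference between Sprr1a-high and Sprr1a-low cells of the same neuron type, in log2(CPM + 1), with 1 point per DRG sample (12 samples; bars, mean ± SD). Isl1 lies below 0 in 11 samples, whereas Shox2, Pou4f1 and Pou4f2 are spread around 0.

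The pattern over types was then read separately in each state. In 7 clusters with at least 10 high and 10 low cells, the cluster with the highest pooled level was the same in high and in low cells for 9 of 10 members. The labelled clusters that lead by their means for Prdm12 (NP-like) and Etv1 (the SST-like cluster of 59 cells) had only 2 and 1 high cells. They are not among the 7. Within samples, NP-like was the highest for Prdm12 in 0 of 8 samples, and that SST-like cluster for Etv1 in 6 of 8. Cells were placed in clusters by their other variable genes, so a cell that had lost the pattern of its type could fall in another cluster. The agreement between states therefore cannot decide whether identity was kept. Shox2 was highest in the same NF-like cluster with 105 CPM in its 33 high cells and 142 CPM in its 58 low cells, and at most 1.83 CPM in the other clusters in either state. Runx3 was 9.57 and 12.9 CPM there, and Maf 36.7 and 24.9 CPM. Runx1 was 12.1 CPM in high and 13.9 CPM in low NF-like cells with Shox2, compared with 117 and 57.3 CPM in PEP2-like cells. The exception was Pou4f1, which was highest in the NF-like cells with Shox2 in the high state and in PEP2-like cells in the low state.

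Within this pattern Isl1 was lower in high cells in 7 of 7 clusters, such as 83.6 compared with 119 CPM in PEP1-like and 176 compared with 259 CPM in NF-like cells with Shox2. In TRPM8-like cells the pooled values were 252 and 362 CPM, but the means over samples with at least 3 cells ran the other way, with 311 CPM in high and 207 CPM in low cells (n = 2 samples each). In the unnamed cluster these means were 146 (n = 2) and 148 CPM (n = 4). The share of all genes with lower pooled levels in 7 of 7 clusters was not counted. Prdm12 was lower in 6 of 7 clusters, such as 4.26 compared with 8.01 CPM in PEP1-like and 7.27 compared with 19.3 CPM in the second NF-like cluster; the exception was the NF-like cluster with Shox2, at 1.69 and 0.54 CPM. Pou4f2 was also lower in 6 of 7 clusters, with 21.6 compared with 46.5 CPM in the NF-like cluster with Shox2 and, as the exception, 6.03 compared with 2.61 CPM in PEP2-like cells. PEP2-like low cells were shallow, with a median of 59850 UMIs compared with 171102 in PEP2-like high cells.

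**Figure D5:**
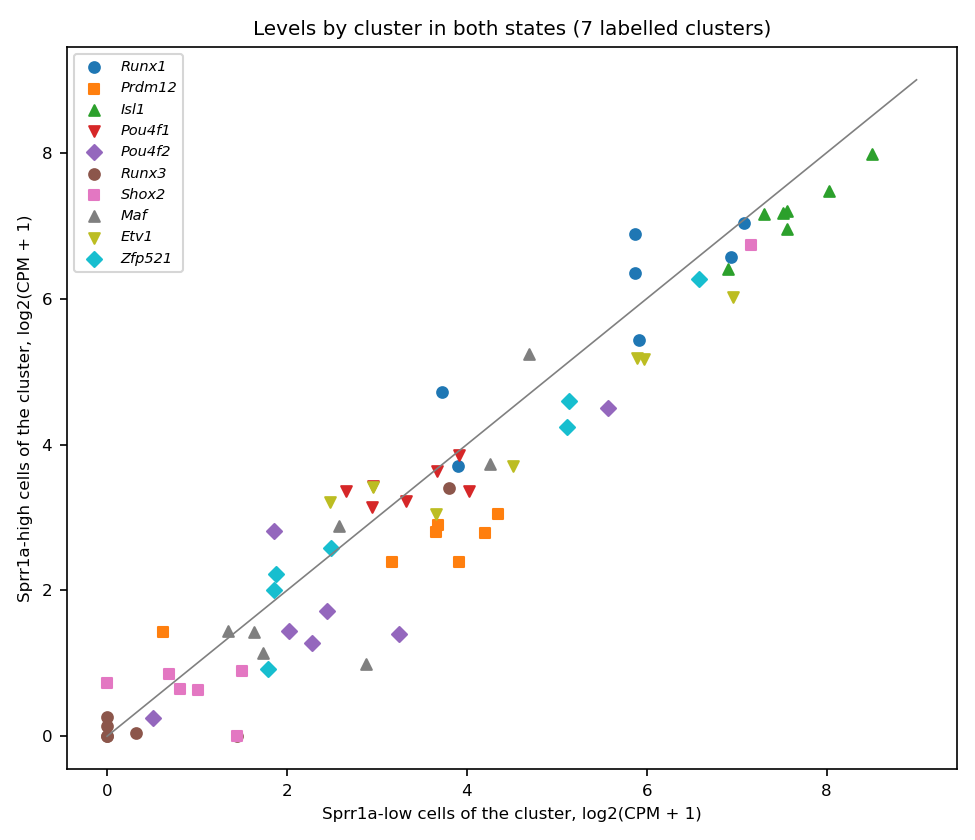
Level of each gene in log2(CPM + 1), pooled over cells, in Sprr1a-low (x axis) and Sprr1a-high cells (y axis) of 7 labelled clusters with at least 10 cells of both; each point is 1 gene in 1 cluster, and the grey line marks equal levels. The points of Isl1 lie below the line in 7 of 7 clusters, but its means over samples ran the other way in TRPM8-like cells.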

How the data were processed

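Single DRG neurons of 23 DRG samples in 24 libraries were measured by single-cell RNA-seq. According to the submitters' processing notes and the study's methods, reads were demultiplexed on cell barcodes and trimmed, mapped by STAR against Rnor_6.0, given to genes by featureCounts, sorted by Samtools and deduplicated by UMI_tools. The deposited values are whole UMI counts, which the authors had not normalized. UMIs of the 32881 shared genes were read by name; no coordinates of that build are given. Sums per sample held 4002503 to 40732975 UMIs, and counting intervals would cover counting error only.

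Cells were clustered per set with Seurat 5.3.0 (2000 variable genes, 40 components, resolution 0.5), without the members and injury genes. No doublet caller was run, since neurons had been picked by hand. A cluster was named from at least 3 markers of a type that were at least 1.5 times higher than in other cells and found in at least 25% of its cells. Sums per sample were tested with edgeR 4.0.16 (TMM, filterByExpr, quasi-likelihood, Benjamini-Hochberg over all genes tested, called at 0.05), with the sample as a block for Sprr1a-high against Sprr1a-low cells. Differences within types were taken in log2(CPM + 1), averaged to 1 value per sample and tested with limma 3.58.1 over genes averaging at least 5 CPM; a fold on this scale understates the change of low genes. Replicates of a group differed beyond sampling noise, with chi-square values per degree of freedom of 10.1 to 107. The fits were tested on simulated data. R 4.3.3, DESeq2 1.42.0, Python 3.11.15, NumPy 2.4.6, pandas 2.3.3, SciPy 1.17.1, Matrix 1.6.5 and matplotlib 3.10.9 were used.

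The genes named are the 10 members, 8 injury genes (Npy did not pass the filters), 38 other sensory transcription factors (35 listed in the files under those symbols), 13 partner and target genes and 6 glial markers, and for each member the 3 genes most like it. The members and lists were chosen with earlier results of these data known. Sox11 is on both the injury and the transcription factor list, and Cbfb on both the transcription factor and the partner list. The promoter table is from RefSeq on GRCr8, another build than that of the counts, and 9 of 10 members have an entry in it. Alternatives were other tools, normalizations, filters, pseudocounts, Sprr1a limits, clusterings and cells, a term for the reverse transcription year, a block for its day (added once the data had been seen), cells thinned to 50000 UMIs and each sample left out.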

Additional observations from a re-analysis of the deposited data

Results flagged for a closer look

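In 40 groups of 4, 5 or 7 samples, 1 for each gene and group, 6 held a sample far from the others by Dixon's test, and chance alone flags about 1 group in 20. Added sham sample S4, in which 43 of 86 cells were NF-like, stood apart for 4 genes: Runx3 at 16.1 CPM, Shox2 at 146 CPM, Etv1 at 439 CPM and Zfp521 at 62.2 CPM. Without S4 the edgeR calls of Etv1 and Pou4f2 between the sham sets were kept. Runx3 was 1.42 CPM in sample 16, compared with 0 to 0.12 CPM in the other samples at 1 dpi. Prdm12 was 17.9 CPM in labelled sham sample 4, compared with 7.50 to 9.20 CPM in the other sham samples.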

How the results depend on the processing

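The members called after SNC stayed at 0 under every alternative run at 1, 3 and 7 dpi, also with a block for the day of reverse transcription, which was added once the data had been seen. Between the sham sets 2 members were called, and 2 to 3 without 1 sample; 4 were called without the clusters of high glial genes, where Runx1 (0.90) and Zfp521 (1.80) joined, and 5 in NF-like, SST-like and NP-like cells only, both chosen after seeing the data. Between Sprr1a-high and Sprr1a-low cells of the same sample 5 were called, 0 with the 4 sham samples only and 1 (Etv1) with the 3 sham samples other than Xin, chosen after seeing the data. Within types 0 were called, and 1 at a limit of 500 CPM (Isl1), 2 with edgeR and the block (Isl1 and Etv1), and 0 to 1 without 1 sample. The edgeR fit with the block counted several types of 1 sample as replicates. Maf, at 0.00 and not called between cells of the same sample, was called lower at a limit of 500 CPM (−2.46, edgeR adjusted p = 0.0034); the cause was not tested. Zfp521 between the sham sets was called by DESeq2 (1.27, adjusted p = 0.047) and at 50000 UMIs per cell (1.64, edgeR adjusted p = 0.012), but not in the main test (1.29, edgeR adjusted p = 0.087); it was also called without added sample S2 (1.44, edgeR adjusted p = 0.048). Between cells of the same sample, Zfp521 was called without sample 17-2 (−0.73, edgeR adjusted p = 0.044) and Shox2 at 50000 UMIs per cell (−0.93, edgeR adjusted p = 0.0073). The leading cluster was the same for 8 to 10 of the members under other clusterings and weights; Etv1 and Prdm12 moved between clusters. No paired analysis was possible because the replicate numbers come from accession order and pair no samples across groups; only the dates of reverse transcription do. Runx3 was at 0 in 5 of 16 labelled samples, which held 0 to 3 cells of the NF-like cluster with Shox2.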
